A study of Mus musculus with 4 samples.

Results

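Oxygen and glucose deprivation (OGD) was followed by differences in the same direction in control and PGC-1α-overexpressing HT-22 cells for 179 of the 10604 genes tested, of which 51 were higher and 128 were lower after OGD. A gene was included when both OGD libraries exceeded both untreated libraries by 1.5-fold or more in FPKM + 1, or were below both by as much. FPKM is a fragment count scaled to transcript length and to all mapped fragments, and here the deposited transcripts of each mouse gene symbol were summed. Tested genes averaged 1 FPKM or more across the 4 libraries, and a fold of FPKM + 1 understates the change of low genes. Because these values themselves chose the genes, they are given as a description and were not tested. For every included gene the criterion also fixes that OGD and untreated values do not overlap.

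The study sequenced poly(A) RNA of HT-22, a mouse line of hippocampal neuronal origin that grows without limit, in 4 conditions with 1 library each. Ctrl cells carried a negative control lentivirus and PGC-1α cells a lentivirus that overexpresses PGC-1α, a transcriptional coactivator of mitochondrial genes, and both were selected with puromycin. Ctrl+OGD and PGC-1α+OGD cells spent 2 h in medium free of glucose and serum in a chamber of nitrogen and carbon dioxide and were then returned to normal medium for 24 h before RNA extraction. Whether untreated cells had a mock change of medium is not given in the sources used here, so lack of oxygen, withdrawal of glucose and serum, and the change of medium cannot be told apart. No condition has a replicate library, and the 2 libraries on each side differ in PGC-1α. In bulk RNA, fewer cells of a kind and less RNA per cell cannot be told apart.

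FPKM totals were 331892 and 338091 in untreated Ctrl and PGC-1α libraries and 353381 and 347314 after OGD, and the number of reads behind them is unknown. Transcripts listed at 0 numbered 1736 and 1799 in the untreated libraries and 2030 and 2070 after OGD, in the same order. The part of this difference in genes listed near 0 after OGD was not tested. Where 4 values of a gene are listed, the untreated Ctrl and PGC-1α libraries come first and their OGD counterparts follow in the same order. Ppargc1a, which encodes PGC-1α, had 0.900 and 35.1 FPKM in untreated Ctrl and PGC-1α cells and 0.103 and 8.41 FPKM after OGD, so both PGC-1α libraries were above both Ctrl libraries. Its level in PGC-1α cells was lower after OGD, so the 2 PGC-1α libraries also differ in the overexpressed gene. Of 12 mature neuron markers 2 were listed, Syp at no more than 0.997 FPKM and Camk2a at 4.40 to 7.31 FPKM, and none of 4 immature neuron markers was listed. Of 5 mesenchymal markers 3 were abundant, Vim at 398 to 508 FPKM, Col1a1 at 156 to 198 FPKM and Col1a2 at 236 to 265 FPKM, while Acta2 was at 0.474 to 0.847 FPKM and Thy1 was not listed. The summed level of the listed mature neuron markers ranged from 5.21 to 8.31 FPKM in untreated and from 5.10 to 5.30 FPKM in OGD libraries, and that of the mesenchymal markers from 822 to 900 FPKM and from 849 to 926 FPKM. Of 5 astrocyte markers 3 were listed and Gfap was not, with a summed level of 21.4 to 26.8 FPKM in untreated and 19.1 to 22.4 FPKM in OGD libraries, and of 5 oligodendrocyte markers Mbp alone was listed, at 3.26 to 4.76 FPKM. Microglial markers were near 0, with only Cx3cr1 listed among 4, at no more than 1.22 FPKM. The part of these marker levels in the results was not tested.

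Cells deprived of oxygen normally stabilize hypoxia-inducible factor (HIF), which turns on glycolysis and oxygen-supply genes, and lack of nutrients can activate the transcription factor ATF4 and the unfolded protein response. Sterol synthesis is controlled by the sterol-sensing factor SREBP-2, which turns on the enzymes from acetyl-CoA to cholesterol when membrane sterol is low. Acute-phase and complement proteins are secreted under the control of interleukin-6 family cytokines, STAT3, C/EBP proteins and NF-κB, and inflammatory caspases process cytokines and cut gasdermin D.

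The 51 higher genes were 0.481% and the 128 lower genes 1.21% of the genes tested. In Ctrl+OGD compared with Ctrl, 657 genes (6.2%) passed 1.5-fold upward and 818 (7.71%) downward. In PGC-1α+OGD compared with PGC-1α, which shares no library with the first comparison, these were 405 (3.82%) and 553 (5.22%). Past 1.5-fold in both comparisons were 81 genes higher and 185 genes lower, and 30 and 57 of them are not among the 179 because an OGD library of one cell type was too close to the untreated library of the other. The same criterion applied to PGC-1α, with both PGC-1α libraries against both Ctrl libraries, was met by 90 genes.

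**Figure D1:**
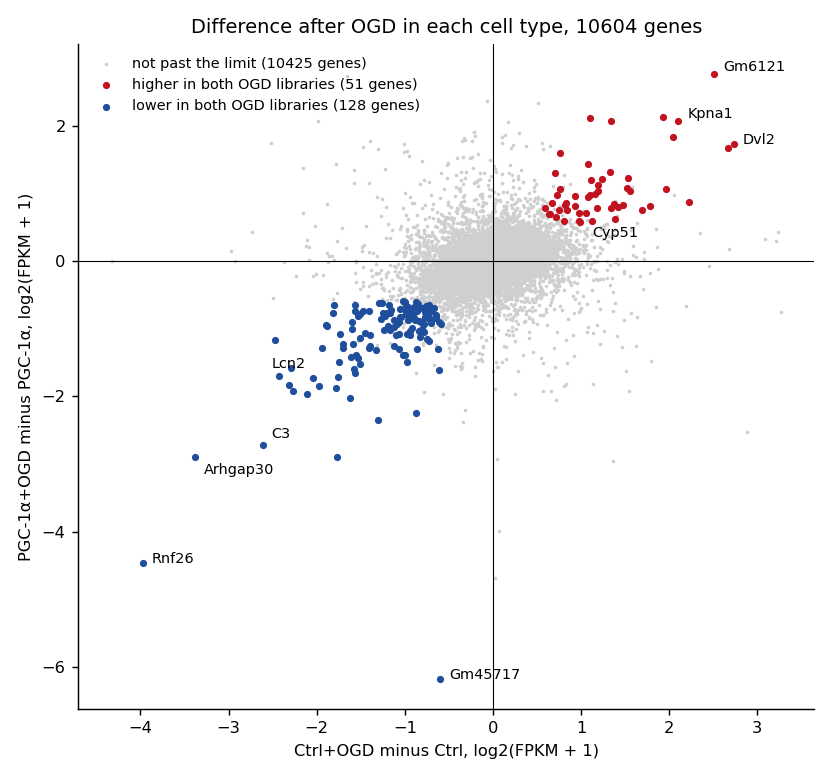
Each point is 1 of 10604 genes. The horizontal axis is the difference of log2(FPKM + 1) between Ctrl+OGD and Ctrl and the vertical axis that between PGC-1α+OGD and PGC-1α. The 51 red and 128 blue points are the genes that met the criterion, and Gm45717, at -6.17 in PGC-1α cells and -0.60 in Ctrl cells, lies apart from the rest.

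The median difference of the 51 higher genes on the log2(FPKM + 1) scale was 1.12 in Ctrl cells and 0.95 in PGC-1α cells. For the 128 lower genes it was -1.07 and -0.93, while the medians over all genes tested were -0.02 and 0.00. The absolute difference was larger in Ctrl cells for 33 of the 51 higher genes and 82 of the 128 lower genes, and for 6418 of all 10604. Measured between the nearest OGD and untreated libraries, the median fold of FPKM + 1 was 1.73 for the higher and 1.71 for the lower genes, and 13 and 35 genes passed 2-fold. The changed genes were less abundant than most, with a median level of 9.15 FPKM for the higher and 6.94 FPKM for the lower genes against 12.6 FPKM for all. Of the 179, 65 (36.3%) had a mean under 5 FPKM, against 22.5% of all genes tested.

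At the limit, Mvd and Idi1 were just inside the higher group with nearest folds of 1.505 and 1.501, and Mrps11 and Rrp15 were just outside with 1.495 and 1.491. In the lower group Gstm7 and Mxra8 were just inside with 1.504 and 1.501, and Tmem176b and Trib2 just outside with 1.494 and 1.493. These genes have nearly the same values on both sides of the limit, so the membership of any of them is not a finding.

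7 genes of the mevalonate and cholesterol pathway were higher after OGD in both cell types. Of 22 tested genes of sterol biosynthesis and uptake, 7 met the criterion as higher and none as lower, where 0.481% of all genes were higher. The medians of this list were 0.79 in Ctrl cells and 0.38 in PGC-1α cells, against -0.02 and 0.00 for all genes. In 19 of the 22 genes both OGD libraries lay above both untreated libraries by some amount, as did 23.2% of all genes. When the most abundant transcript stood for each gene, 2 of the 22 passed the limit, and at a 2-fold limit 0 did. Among the 7, Sqle, Fdps, Mvd and Idi1 were just inside the 1.5-fold limit, with nearest folds of 1.515, 1.513, 1.505 and 1.501. The rest of the 7 had larger nearest folds.

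Within the pathway from acetyl-CoA to farnesyl diphosphate, Idi1, which isomerizes isopentenyl diphosphate, had 8.70 and 10.6 FPKM in untreated Ctrl and PGC-1α cells and 18.2 and 16.3 FPKM after OGD. Mvd, the decarboxylase that makes isopentenyl diphosphate, had 6.43, 7.53, 12.0 and 11.8 FPKM in the same order. Fdps, farnesyl diphosphate synthase, had 47.4, 62.8, 104 and 95.6 FPKM. In these 3 genes the 2 OGD libraries were close to each other, and the criterion fixes that they lay above both untreated libraries. Mvd has 1 deposited transcript, whereas Fdps has 5 and Idi1 has 4, and no single transcript of mean 1 FPKM or more of either gene passed the limit alone.

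The enzymes of the first steps specific to sterols followed. Neither of the 2 transcripts of Fdft1 passed the limit alone, while the sum for Fdft1, squalene synthase, had 11.4 and 12.7 FPKM in untreated Ctrl and PGC-1α cells and 22.7 and 23.2 FPKM after OGD. Sqle, squalene epoxidase, had 14.6, 18.8, 29.8 and 28.9 FPKM in the same order, but its 2 transcripts changed places, with ENSMUST00000100640 listed at 0 without PGC-1α and OGD and at 17.1 FPKM with PGC-1α alone. Cyp51, the lanosterol demethylase (chromosome 5, 4081145 to 4104746 of GRCm38, minus strand), had 62.9, 72.4, 125 and 119 FPKM and 1 deposited transcript, so no shift between transcripts enters its value. Of the 7 genes, Cyp51 and Mvd have a single deposited value.

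Among list genes that did not meet the criterion, Msmo1, a methylsterol oxidase, differed by 1.32 in Ctrl cells and 0.37 in PGC-1α cells on the log2 scale. Hmgcs1, an enzyme of the early part of the pathway, differed by 0.59 and 0.56. Tm7sf2, Pmvk and Dhcr7 were the 3 genes in which OGD and untreated values overlapped. The PGC-1α library was above Ctrl in 21 of the 22 genes without OGD (95.5%, against 45.8% of all genes), and the difference after OGD was larger in Ctrl cells in 18 of the 22. Both of these counts use the Ctrl library.

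**Figure D2:**
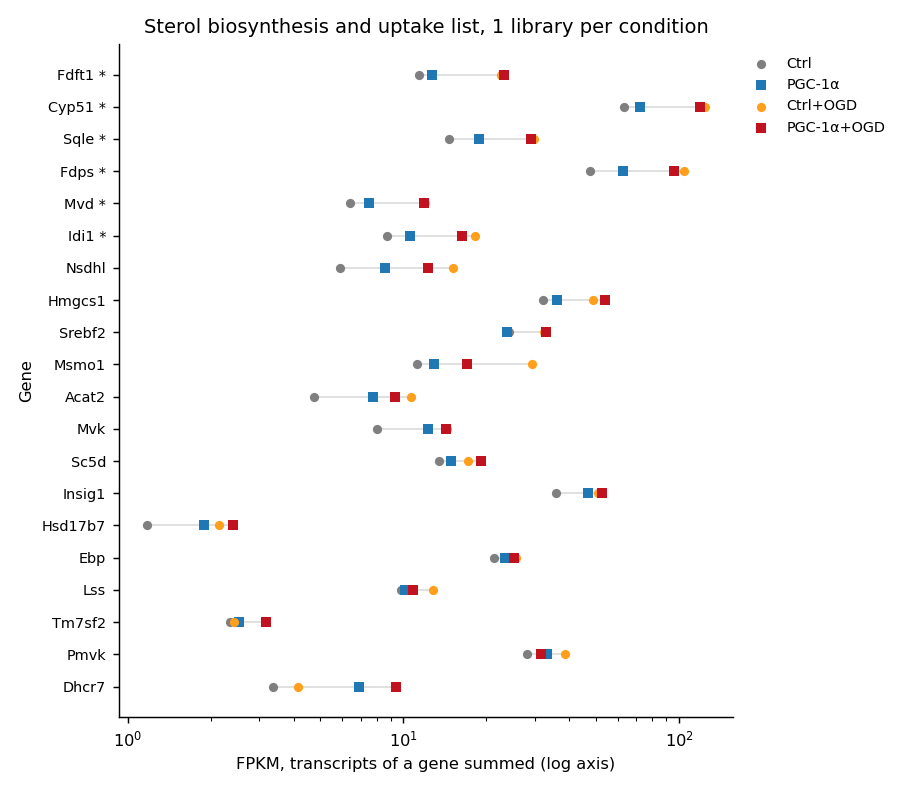
FPKM on a log axis for 20 of the 22 tested genes of the sterol list, ordered by the separation of OGD from untreated libraries, with 1 point per library and no error bars because each condition has 1 library. Asterisks mark the 6 plotted genes that met the criterion. In 17 of the 20 genes both OGD points lie to the right of both untreated points, and Ctrl is the lowest point in 19.

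Promoter sequence was taken from RefSeq (GRCm38.p6) as the 250 bases before the gene start, for 8406 of the genes tested and 134 of the 179. The sterol element searched, TCACNCCAC on either strand, was held by 0.904% of all promoters and by none of the promoters of Cyp51, Mvd and Idi1, the 3 higher sterol genes with an entry. The CCAAT box, the site of nuclear factor Y, was held by all 3, by 15 of the 17 list genes with an entry (88.2%) and by 37.9% of all promoters. The sequence before Mvd on the minus strand, chr8:122443423-122443672, is shown because its window, alone of the 3, holds no annotated exon. The window holds a CCAAT box on each strand, given in capitals (ATTGG where the box is on the opposite strand):

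Mvd: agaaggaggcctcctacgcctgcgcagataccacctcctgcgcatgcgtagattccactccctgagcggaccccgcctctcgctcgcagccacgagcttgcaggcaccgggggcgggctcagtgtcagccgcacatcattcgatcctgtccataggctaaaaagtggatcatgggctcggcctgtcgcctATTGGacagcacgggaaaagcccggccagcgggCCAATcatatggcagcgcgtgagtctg

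The ATF4 composite element TGATGNAA was present in 4 of 40 promoters of higher genes (10%) and in 1.99% of all promoters. These 4 were before Angptl8, Gm6121, Idi1 and Nagpa. The HIF core, ACGTG or GCGTG, was in 67.5% of the promoters of higher genes, in 47.9% of those of lower genes and in 59.4% of all. The shares of the remaining fixed motifs in higher and lower genes were 2.5% and 3.19% for the CRE TGACGTCA (2.9% of all), 37.5% and 36.2% for the CCAAT box, 5% and 6.38% for the AP-1 site TGANTCA (4.08% of all), 7.5% and 12.8% for the NRF2 element TGACNNNGC (12.2% of all), and 2.5% and 3.19% for the interferon element (2.63% of all). A match is a run of letters and not a site in use.

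Of all higher genes, Gm6121 (chromosome X, 26912743 to 26935697, minus strand), a gene model without a name, was the most separated. Gm6121 was listed at 0 in both untreated libraries and had 4.70 and 5.80 FPKM after OGD in Ctrl and PGC-1α cells. Kpna1 (chromosome 16, 35978750 to 36037131, plus strand), an importin that carries cargo into the nucleus, had 3.72 and 4.17 FPKM in untreated Ctrl and PGC-1α cells and 19.3 and 20.7 FPKM after OGD. The 4 Kpna1 values fell into 2 well separated pairs, and its main transcript, ENSMUST00000004054, had the same pattern with 3.55, 3.58, 16.8 and 19.7 FPKM. Dvl2, a dishevelled protein of Wnt signaling, had 1.08, 2.95, 12.8 and 12.1 FPKM in the same order.

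Twf2, an actin-binding twinfilin, had 6.32 and 6.38 FPKM in untreated Ctrl and PGC-1α cells and 17.4 and 17.3 FPKM after OGD. Paqr7, a membrane progestin receptor, had 1.14, 1.05, 3.62 and 3.69 FPKM, and D3Ertd751e had 1.58, 0.560, 5.53 and 5.57 FPKM. In each of these 3 genes the 2 OGD libraries differed from one another by far less than from the untreated ones, but D3Ertd751e fell short of the limit by its most abundant transcript. Tubgcp5, a subunit of the γ-tubulin ring, had 0.124, 0.203, 6.15 and 2.83 FPKM, but a different transcript carried the sum in each OGD library: ENSMUST00000205796 had 5.93 FPKM in Ctrl+OGD and was listed at 0 in PGC-1α+OGD. Tnfaip2, a gene induced by tumor necrosis factor, had 8.46, 7.96, 26.4 and 20.0 FPKM and the same kind of shift, its ENSMUST00000109792 having 19.2 FPKM with OGD in Ctrl cells against 0.131 FPKM with OGD in PGC-1α cells. Tubgcp5 and Tnfaip2 also fell short of the limit by their most abundant transcript.

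A list of ribosome biogenesis and RNA polymerase I was written after the values were seen, so its counts are a description only. Of its 84 tested genes 5 were higher, where 0.481% of all genes were, and none was lower, and at a 2-fold limit 2 were higher. Exosc8, a subunit of the RNA exosome, had 14.4 and 13.8 FPKM in untreated Ctrl and PGC-1α cells and 35.2 and 33.4 FPKM after OGD from 1 transcript. Mybbp1a, a nucleolar protein, had 26.1, 29.9, 60.8 and 66.3 FPKM in the same order, also from 1 transcript. The values of both genes formed 2 separate pairs about 2-fold apart. Nol9, a kinase of ribosomal RNA processing, had 0.0996, 0.382, 3.54 and 3.92 FPKM, with the sum moving from one transcript to the other between the OGD libraries. The remaining 2 were Wdr75 and Lyar, and Nol9 and Lyar fell short of the limit by their most abundant transcript. In 54 of the 84 genes both OGD libraries were above both untreated ones, as in 23.2% of all genes, with list medians of 0.26 and 0.12.

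By level, the 5 most abundant higher genes were Map2k2, Cyp51, Eif4g1, Fdps and Mybbp1a. Map2k2, the kinase MEK2, had 60.8 and 67.4 FPKM in untreated Ctrl and PGC-1α cells and 136 and 136 FPKM after OGD. Eif4g1, a scaffold of translation initiation, had 75.4, 58.6, 125 and 116 FPKM in the same order. Both genes were separated in their sums, while for Map2k2 the transcript ENSMUST00000143517 was lower after OGD, with 30.1, 40.6, 22.5 and 19.1 FPKM. Of 9 Eif4g1 transcripts of mean 1 FPKM or more, 1 passed the limit alone and 7 were not separated. Pfkfb4, which makes an activator of glycolysis, was the single higher gene of 19 in the glycolysis list, with 1.84, 1.03, 5.00 and 4.51 FPKM. Mdm2, the ubiquitin ligase of p53, was the single higher gene of 21 p53 targets, with 2.98, 3.0, 12.7 and 6.08 FPKM, and it fell short of the limit by its most abundant transcript. Of all genes tested 0.481% were higher, and a single gene in either list is not a result about the list.

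How far 1 transcript bears the sum was counted for the included genes only. Without the same counts over all genes tested, a difference between the directions is not a result about either group. Of 21 higher genes with 2 or more transcripts of mean 1 FPKM or more, 1 had 2 such transcripts past the limit and 17 had one that was not separated. Of 49 such lower genes, 12 had 2 or more past the limit and 25 had one that was not separated. The program that assigned reads to transcripts is not given in the sources used here, and its part in these values was not tested. Genes with 1 deposited transcript, to which this does not apply, were 16 of the 51 higher and 46 of the 128 lower genes (34.6% of all 179, against 39.6% of all genes tested).

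Among the lower genes, several genes of secreted acute-phase and complement proteins and of interleukin-6 family signaling met the criterion. In a list of 27 tested genes that was written after the values were seen, 11 were lower and none was higher, where 1.21% of all genes were lower. Since the values were known when the list was written, this share is a description and not support for the group. The list medians were -0.44 in Ctrl cells and -0.68 in PGC-1α cells, and in 19 of the 27 genes both OGD libraries were below both untreated ones, as in 24.8% of all genes. At a 2-fold limit 5 of the 27 were lower. Lcn2, lipocalin-2, which binds bacterial siderophores (chromosome 2, 32384633 to 32388252, minus strand), was the most abundant lower gene. Lcn2 had 307 and 291 FPKM in untreated Ctrl and PGC-1α cells and 61.0 and 81.4 FPKM after OGD. The untreated libraries nearly coincided, the OGD libraries were both far below them, and the log2 difference was -2.31 in Ctrl cells and -1.82 in PGC-1α cells. Both deposited Lcn2 transcripts were past the limit.

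C3, the central complement component (chromosome 17, 57203970 to 57228136, minus strand), had 29.0 and 24.9 FPKM in untreated Ctrl and PGC-1α cells and 3.90 and 2.94 FPKM after OGD, with log2 differences of -2.61 and -2.72. Lrg1, a leucine-rich glycoprotein of serum, had 17.8, 31.5, 4.51 and 3.37 FPKM in the same order. Cp, the copper ferroxidase ceruloplasmin, had 54.6, 33.6, 9.29 and 9.67 FPKM. In each of these 3 genes both OGD values were well below the lower untreated value. Orm3, an orosomucoid, differed by -0.94 in Ctrl cells and -1.03 in PGC-1α cells, and Lbp, which binds lipopolysaccharide, by -0.98 and -1.07 on the log2 scale.

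Stat3, Cebpd and Osmr of the same list were lower as well. Stat3, the transcription factor of interleukin-6 signaling (chromosome 11, 100885098 to 100939540, minus strand), had 46.8 and 42.3 FPKM in untreated Ctrl and PGC-1α cells and 23.2 and 24.1 FPKM after OGD. Cebpd, which encodes C/EBPδ, had 51.1, 43.7, 18.9 and 20.0 FPKM in the same order. Osmr, a receptor subunit for oncostatin M, had 81.2, 79.9, 38.6 and 44.5 FPKM. In these 3 genes the 2 libraries of each side were close to each other, and the criterion fixes the gap between the sides. Socs2, a suppressor of cytokine signaling that fell short of the limit by its most abundant transcript, and Junb, a subunit of AP-1, complete the 11 genes. Socs3, the direct feedback inhibitor of STAT3, had 15.5, 19.2, 12.9 and 11.6 FPKM and did not meet the criterion, as did not Il6st, the shared receptor subunit, with 31.1, 20.6, 14.2 and 17.4 FPKM, although in both genes the OGD values were below the untreated ones.

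**Figure D3:**
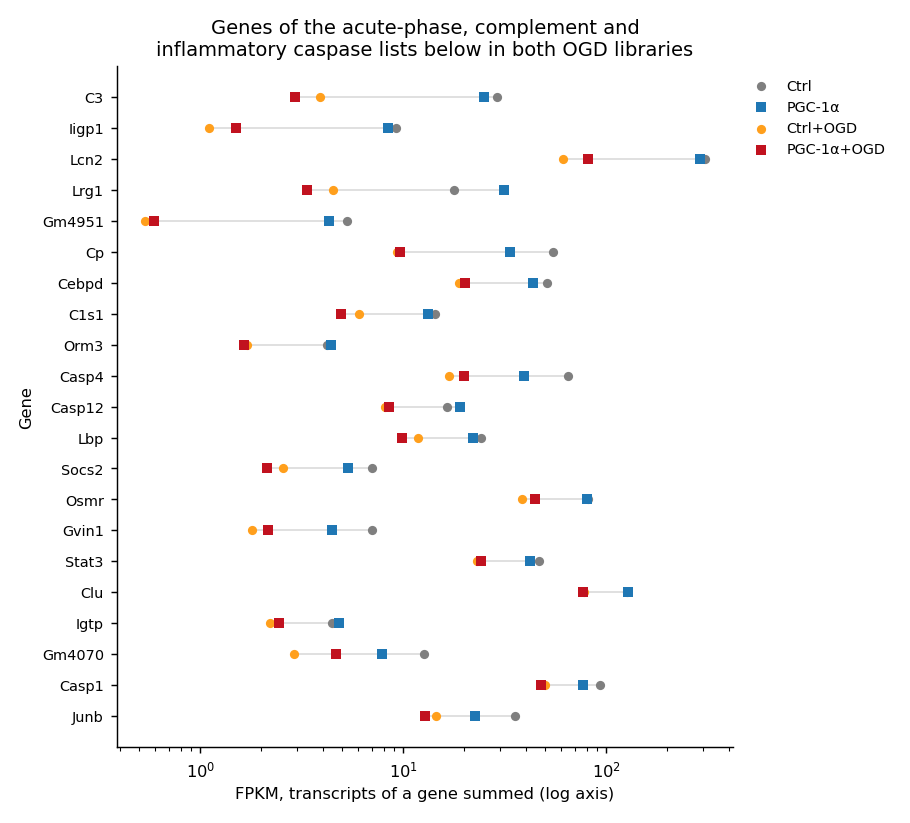
FPKM on a log axis for the 21 lower genes of the acute-phase, complement and inflammatory caspase lists, with 1 point per library and no error bars because each condition has 1 library. For each gene both OGD points lie to the left of both untreated points, which the criterion fixes, and Lcn2, at 61.0 to 307 FPKM, is the most abundant.

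Promoters of this group were searched for a C/EBP element, TTGCNNAA on either strand, a motif added after the values were seen. It was held by 3 of the 8 lower acute-phase genes with an entry, C3, Lcn2 and Orm3, by 6 of 22 tested list genes (27.3%) and by 7.17% of all promoters. It was also in 13.8% of the promoters of lower genes and in 20% of those of higher genes (8 of 40). Elements for STAT, TTCNNNGAA, and NF-κB, added at the same stage, were in 11.7% and 25.5% of promoters of lower genes and in 5.81% and 22.4% of all. The C/EBP match is given in capitals in the sequences before C3, chr17:57228137-57228386 on the minus strand, and Orm3, chr4:63355908-63356157 on the plus strand, shown because these windows hold no annotated exon:

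C3: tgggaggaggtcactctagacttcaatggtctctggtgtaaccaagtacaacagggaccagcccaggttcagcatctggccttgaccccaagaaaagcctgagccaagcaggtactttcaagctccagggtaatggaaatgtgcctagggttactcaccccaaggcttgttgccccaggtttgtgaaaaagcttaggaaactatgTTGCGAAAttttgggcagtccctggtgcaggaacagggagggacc

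Orm3: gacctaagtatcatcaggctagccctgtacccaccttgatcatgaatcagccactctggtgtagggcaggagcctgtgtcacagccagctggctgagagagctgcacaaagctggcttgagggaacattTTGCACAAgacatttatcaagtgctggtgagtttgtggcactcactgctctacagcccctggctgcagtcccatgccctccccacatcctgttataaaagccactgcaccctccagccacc

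In a complement list of 11 tested genes, also written after the values were seen, 3 were lower, C3, C1s1 and Clu, where 1.21% of all genes were lower. C1s1, a protease of the first complement component, had 14.4 and 13.2 FPKM in untreated Ctrl and PGC-1α cells and 6.04 and 4.95 FPKM after OGD. Clu, clusterin, an inhibitor of the terminal complex and an extracellular chaperone, had 126, 128, 77.6 and 76.4 FPKM in the same order, but none of its 5 transcripts of mean 1 FPKM or more passed the limit alone. In 8 of the 11 genes both OGD libraries were below both untreated ones, as in 24.8% of all genes, and the list medians were -0.60 and -0.74.

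A list of inflammatory caspases, inflammasome genes and interferon-inducible GTPases was also written after the values were seen, so its counts are a description only. Of its 13 tested genes 8 were lower, where 1.21% of all genes were, and none was higher, with medians of -0.90 in Ctrl cells and -0.68 in PGC-1α cells. The genes Casp1, Casp4 and Casp12 lie next to each other on chromosome 9, from 5298517 to 5373032 of GRCm38, and all 3 were lower. Casp1, which activates interleukin-1β, had 93.3 and 77.1 FPKM in untreated Ctrl and PGC-1α cells and 49.7 and 47.7 FPKM after OGD. Casp4, the sensor of lipopolysaccharide inside cells, had 64.9, 39.1, 16.8 and 19.9 FPKM, and Casp12 had 16.5, 19.1, 8.13 and 8.48 FPKM. Gsdmd, the gasdermin that Casp1 and Casp4 cut, differed by 0.04 in Ctrl cells and by 0.00 in PGC-1α cells.

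Iigp1, an interferon-inducible GTPase that attacks the vacuoles of intracellular parasites, had 9.20 and 8.43 FPKM in untreated Ctrl and PGC-1α cells and 1.11 and 1.5 FPKM after OGD. The related Gm4951 had 5.29, 4.30, 0.531 and 0.593 FPKM in the same order. Both were among the 10 most separated lower genes. Igtp, of the same class, differed by -0.77 and -0.76, and it shares exons with Irgm2, which had 1.78, 1.43, 1.16 and 0.900 FPKM. The list of interferon-stimulated genes and antigen presentation had no gene of 27 past the limit, where 0.481% of all genes were higher and 1.21% lower. Its medians were -0.38 and -0.23, and in 19 genes both OGD libraries were below both untreated ones, as in 24.8% of all genes. In that list Irf1 differed by -0.94 and -0.31.

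Of 14 tested NF-κB targets and cytokines, C3, Lcn2 and Cxcl1 were lower, where 1.21% of all genes were, and none was higher. Cxcl1, a neutrophil chemokine, had 83.7 and 60.4 FPKM in untreated Ctrl and PGC-1α cells and 28.7 and 27.0 FPKM after OGD. Ccl2, a monocyte chemokine, went in opposite directions, with differences of 0.75 in Ctrl cells and -0.27 in PGC-1α cells. Of 27 immediate early and MAPK feedback genes, 4 were lower, Dusp5, Fosl2, Junb and Spry4, and 15 had both OGD libraries below both untreated ones, against 1.21% and 24.8% of all genes. Spry4 fell short of the limit when the trend with length and GC content was removed. Dusp5, a phosphatase of ERK, had 5.08, 3.54, 1.01 and 1.43 FPKM, Fosl2, a subunit of AP-1, had 23.9, 21.3, 11.1 and 11.6 FPKM, and Junb had 35.5, 22.6, 14.4 and 12.9 FPKM. Egr1 did not meet the criterion because its PGC-1α value of 5.49 FPKM was already near the OGD values of 4.14 and 3.45 FPKM, where Ctrl had 27.9 FPKM.

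The most separated lower gene was Rnf26, a ubiquitin ligase of the endoplasmic reticulum (chromosome 9, 44095631 to 44113517, minus strand), with 14.8 and 21.4 FPKM in untreated Ctrl and PGC-1α cells and 0.00615 and 0.00979 FPKM after OGD. Rnf26 has 1 deposited transcript and shares exons with Gm49380, which had 0.0939, 0.140, 0.587 and 0.347 FPKM. Arhgap30, which inactivates small GTPases, had 9.45 and 6.42 FPKM in Ctrl and PGC-1α and was listed at 0 in both OGD libraries. Ccno, a cyclin of ciliated cells, had 2.94, 2.60, 0 and 0.00243 FPKM. These 3 genes were near or at 0 in both OGD libraries, and a value of 0 in such a table can also come from an estimate that failed. Tspan5, a tetraspanin, had 11.5, 11.8, 1.90 and 2.29 FPKM, where ENSMUST00000119993 was lower and ENSMUST00000029800 higher after OGD.

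Rarres2 encodes the chemoattractant chemerin and had 148 and 206 FPKM in untreated Ctrl and PGC-1α cells and 42.4 and 55.1 FPKM after OGD. Lpl, lipoprotein lipase, had 163, 161, 84.9 and 88.9 FPKM in the same order. Abca1, which exports cholesterol from cells, had 9.87, 10.1, 2.71 and 3.24 FPKM. Lpl and Abca1 are targets of the liver X receptor, in a list of 11 tested genes written after the values were seen, of which these 2 were lower, against 1.21% of all genes, with list medians of -0.07 and -0.32. Abca1 was included as lower and the 7 sterol genes as higher, so the criterion fixes that they lay on opposite sides after OGD. In the liver X receptor list both OGD libraries were below both untreated ones in 4 of 11 genes and above in 0. The shares over all genes were 24.8% and 23.2%. Fas, a death receptor, was the single lower gene of 21 p53 targets, with 9.19, 7.11, 3.86 and 2.86 FPKM, Pcx, pyruvate carboxylase, the single one of 21 citrate cycle genes, with 10.8, 12.7, 5.73 and 6.33 FPKM, and Casp12 the single one of 19 apoptosis genes. The share over all genes was again 1.21%, and a single gene in such a list is not a result about the list.

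The next lower genes were in no list and were chosen for description after their values were seen. Prelp, a small leucine-rich matrix proteoglycan, had 10.5 and 11.9 FPKM in untreated Ctrl and PGC-1α cells and 3.02 and 3.48 FPKM after OGD. Col9a1, a chain of a cartilage collagen, had 14.3, 13.8, 4.31 and 4.52 FPKM in the same order, and Agrn, the basement membrane proteoglycan agrin, had 6.79, 5.30, 1.31 and 0.929 FPKM. Vcan, versican, differed by -0.75 in Ctrl cells and -1.15 in PGC-1α cells. In the fixed list of collagens, matrix proteins and integrins, which holds none of these 4 genes, 0 of 27 tested genes passed the limit. Of all genes 0.481% were higher and 1.21% lower. Vcan fell short of the limit when the trend with length and GC content was removed.

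Errfi1, Mxd4 and Hes1 were lower genes chosen in the same way. Errfi1, an inhibitor of the epidermal growth factor receptor, had 30.9 and 30.3 FPKM in untreated Ctrl and PGC-1α cells and 13.6 and 16.1 FPKM after OGD. Mxd4, a partner of MAX that opposes MYC, had 37.0, 33.2, 18.5 and 20.4 FPKM in the same order, and Hes1, a repressor downstream of Notch, had 16.9, 19.5, 8.99 and 10.1 FPKM. That the OGD and untreated values of these 3 genes did not overlap is fixed by the criterion. Among higher genes outside the lists, Fabp5, a fatty acid binding protein, had 17.8, 26.1, 49.2 and 45.9 FPKM, and Ppat, the first enzyme of purine synthesis, had 6.96, 6.72, 11.3 and 11.6 FPKM. The DNA repair genes Msh3 and Ercc4 differed by 0.67 and 0.84 in Ctrl cells and by 0.86 and 0.75 in PGC-1α cells, and Msh3 fell short of the limit by its most abundant transcript.

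Gm45717 met the criterion with 0.515 FPKM in Ctrl, 71.1 FPKM in PGC-1α and 0 in both OGD libraries. It shares exons with Ifitm2, which had 156 and 94.8 FPKM in untreated Ctrl and PGC-1α cells and 156 and 138 FPKM after OGD, so that Ifitm2 was lowest where Gm45717 was highest, and Gm45717 no longer met the criterion when genes that share exons were summed. Exons were shared with another gene by 9 of the 51 higher genes (17.6%) and 15 of the 128 lower genes (11.7%), against 9.08% of all genes tested. The median transcript length was 2812 bases for the higher and 2245 bases for the lower genes, against 2736 bases for all, and the median GC content 53.6%, 50.9% and 50.5%.

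Of the 24 fixed lists 17 had no gene past the limit, and 136 of the 179 genes were in no list. With 0.481% of all genes higher and 1.21% lower, a count of 0 in lists of this size is near the share over all genes and is not a result about them. The 17 lists included 26 HIF targets outside glycolysis, 33 ATF4 targets, 24 endoplasmic reticulum chaperones, 20 heat shock proteins, 27 NRF2 targets, 78 nuclear-encoded subunits of oxidative phosphorylation and 13 mitochondrially encoded ones. Among HIF targets Vegfa, a growth factor for vessels, had 76.1 and 62.0 FPKM in untreated Ctrl and PGC-1α cells and 67.3 and 67.3 FPKM after OGD, so OGD values lay between the untreated ones. The HIF list had both OGD libraries above both untreated ones in 3 of 26 genes and below in 5, against 23.2% and 24.8% of all genes.

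Some lists without a gene past the limit held many genes whose OGD and untreated values did not overlap, for which the shares over all genes were 23.2% above and 24.8% below. In the mitosis list, both OGD libraries were above both untreated ones in 27 of 34 genes and below in none, with medians of 0.47 in Ctrl cells and 0.22 in PGC-1α cells. Cdc20, an activator of the anaphase-promoting complex, had 31.6 and 47.3 FPKM in untreated Ctrl and PGC-1α cells and 61.4 and 62.6 FPKM after OGD. DNA replication genes were above in 21 of 32, heat shock proteins in 15 of 20 and endoplasmic reticulum chaperones in 14 of 24, with none below in these lists. Collagens, matrix proteins and integrins were below in 19 of 27 genes and above in 1, and Fn1, fibronectin, had 136, 126, 76.6 and 91.2 FPKM. As in the sterol list, the PGC-1α library was above Ctrl without OGD in 31 of the 34 mitosis genes (91.2%, against 45.8% of all genes). It was also above in 20 of 20 heat shock proteins, 20 of 24 endoplasmic reticulum chaperones and 25 of 32 DNA replication genes. For collagens, matrix proteins and integrins this was 10 of 27. With 76 of 78 nuclear-encoded subunits of oxidative phosphorylation above as well, the trait is not particular to the sterol and mitosis lists.

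**Figure D4:**
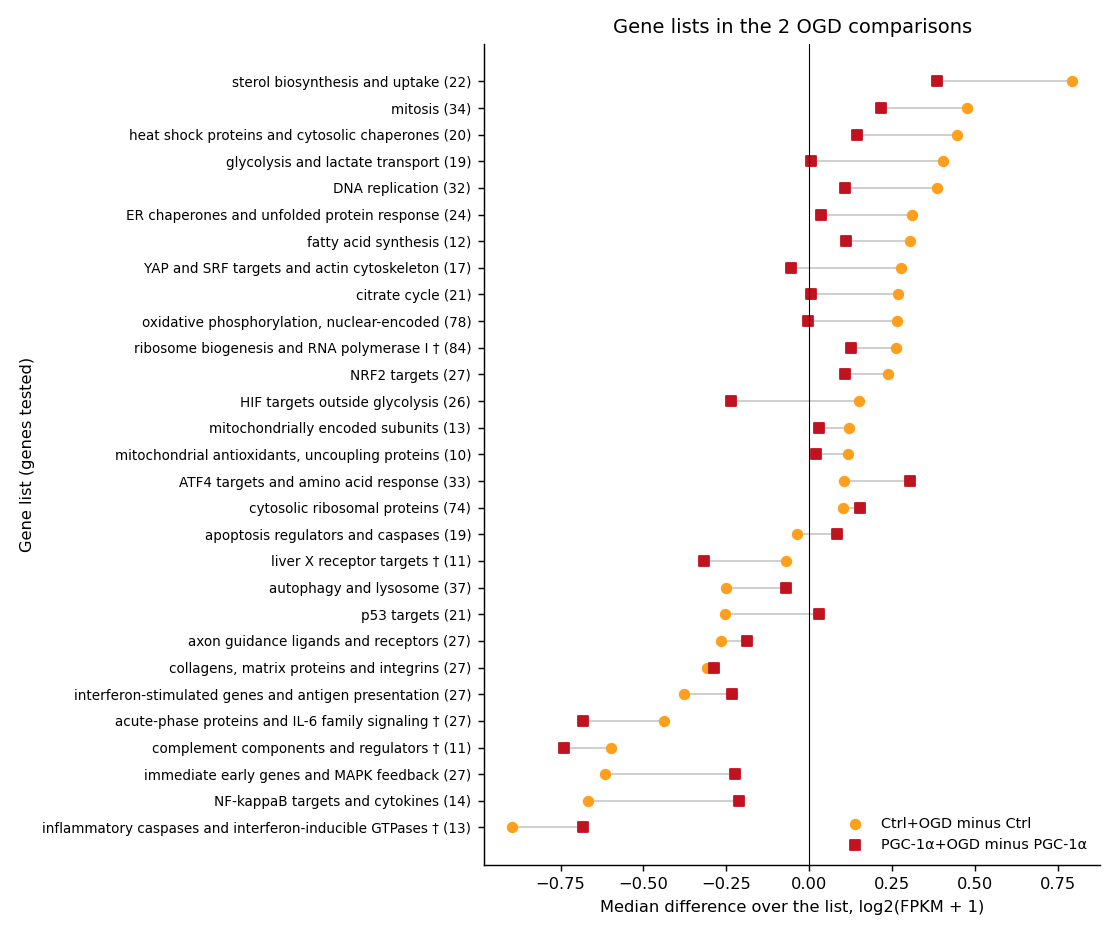
Median difference of log2(FPKM + 1) over the tested genes of each list, in Ctrl cells (circles) and PGC-1α cells (squares), with the number of genes in parentheses and daggers on the 5 lists written after the values were seen. The sterol list is highest in both comparisons at 0.79 and 0.38, the inflammatory caspase list is lowest in Ctrl cells at -0.90, and the complement list is lowest in PGC-1α cells at -0.74.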

How the data were processed

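RNA-Seq values of 4 HT-22 libraries, 1 per condition, were used, and groups follow the sample records. Per the labels and the methods of the study, poly(A) RNA gave paired-end reads, and HISAT2 2.1.0 and GRCm38 are named in the submitters' processing notes. The authors deposited 1 table of values per transcript, taken here as FPKM although the table names no unit, because the values are never negative and their totals differ between libraries. The quantification program, its annotation and any filter are not given in the sources used here; every transcript reached at least 0.500 in 1 or more libraries. Depth is unknown, so no interval on a single value can be given.

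The 25889 deposited transcripts were matched to GENCODE M21 by identifier without version (25822, 99.7%; 67 left out) and summed over 11502 gene symbols, of which 10604 had a mean of at least 1 FPKM. Differences are of log2(FPKM + 1). A gene was higher or lower when the nearest OGD and untreated libraries were at least 1.5-fold apart in FPKM + 1. With 1 library per condition no test was made and no p value computed.

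The genes and the lists were chosen with earlier results of these data known. Of the gene lists, written from general knowledge, 24 were fixed first and 5 were added after the values were seen (acute-phase proteins and interleukin-6 family signaling, complement, inflammatory caspases and GTPases, ribosome biogenesis, liver X receptor targets), as were 3 of 11 promoter motifs. The 5 added lists could draw on genes already seen to differ, so their counts beside the shares over all genes are no test. C3, Lcn2, Junb and Casp12 are each counted in more than 1 list. Named by rule were the 10 most separated genes in each direction, up to 3 per fixed list and direction, the 5 most abundant, the 2 on each side of the limit, Ppargc1a and genes sharing exons with these. Other names were chosen after their values were seen, and a few genes of the lists are counted but not reported singly here. Promoters are RefSeq windows of 250 bases before the start nearest that of the most abundant transcript of the gene. Alternatives were pseudocounts of 0.1 and 0.01, no filter, a mean of at least 5 FPKM, scaling by median ratio or upper quartile, a 2-fold limit, the most abundant transcript, genes with 1 transcript and means of 2 libraries. Added later were exon-sharing genes summed and a trend in length and GC content removed. Software was Python 3.11.15 with matplotlib 3.10.9, pandas 2.3.3 and numpy 2.4.6, and the calculation was tested on simulated data. Reads shared with paralogs could not be separated.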

Additional observations from a re-analysis of the deposited data

Results flagged for a closer look

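For 5 gene lists the median difference after OGD had opposite signs in the 2 cell types. The difference between the cell types was not tested, since each condition has 1 library. The medians over all genes tested, -0.0165 in Ctrl cells and 0.0007 in PGC-1α cells, also had opposite signs. Opposite signs alone are therefore not particular to these lists. HIF targets outside glycolysis had a median of 0.15 in Ctrl cells and -0.24 in PGC-1α cells. Nuclear-encoded subunits of oxidative phosphorylation had 0.26 and -0.0039, p53 targets -0.25 and 0.0298, apoptosis regulators and caspases -0.0368 and 0.0837, and targets of YAP and SRF with the actin cytoskeleton 0.28 and -0.0570. Of the genes that met the criterion in both cell types, these lists hold Mdm2, Fas and Casp12.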

How the results depend on the processing

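The criterion and its alternatives set both OGD libraries against both untreated libraries, whatever the cell type. The differences given for Ctrl cells and PGC-1α cells set each OGD library beside the untreated library of its cell type. No fit with cell type as a block was made, since these values chose the genes. Of the 51 higher and 128 lower genes, 23 and 57 were tested and passed 1.5-fold under each of 10 alternatives. In each of the 10 that tested the gene, 32 and 92 passed. These 10 leave out the 2-fold limit and the setting of genes with 1 transcript. An included gene cannot fall short of 1.5-fold with a smaller pseudocount, no filter, a higher minimum mean or means of 2 libraries. Only the scalings, the most abundant transcript, the sums over exon-sharing genes and the removed length and GC trend could exclude it. Of the 179 genes 1 turned its direction, Donson, a lower gene chosen after its values were seen, whose most abundant transcript had OGD values above the untreated ones by 0.0127 (log2). The number of higher genes was 77 with a pseudocount of 0.1, 80 with 0.01, 13 at a 2-fold limit, 121 by the most abundant transcript of each gene (35 of them among the 51), 16 among genes with 1 deposited transcript and 257 between means of 2 libraries. The number of lower genes was 195 with a pseudocount of 0.01, 76 with a mean of at least 5 FPKM, 35 at a 2-fold limit, 198 by the most abundant transcript (99 of them among the 128), 46 among genes with 1 transcript and 451 between means. Under the remaining alternatives the counts were 38 to 54 and 124 to 186.

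By the most abundant transcript alone, OGD and untreated libraries overlapped for Nol9, Tnfaip2 and Mdm2, whose separation on the log2 scale was -0.30, -0.17 and -1.14, and 2 in place of 7 sterol genes passed the limit. With upper quartile scaling and with the length and GC trend removed, 5 sterol genes passed, and at 2-fold 0. The cause of these changes was not tested. Depth is unknown, which limits the low genes most.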

Other observations

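Besides the caspase cluster, some of the 179 genes lay within 100 kb of one another. Neighbours were not counted over all genes tested, so these pairs are not a result about position. Selenop, a selenium carrier, and Ghr, the growth hormone receptor, are 37252 bases apart on chromosome 15, and both were lower, Selenop with 48.7 and 56.3 FPKM in untreated Ctrl and PGC-1α cells and 13.9 and 19.4 FPKM after OGD, and Ghr with 12.0, 12.9, 5.08 and 5.51 FPKM in the same order. Sbno2 and Cirbp on chromosome 10, Errfi1 and Tnfrsf9 on chromosome 4, and Fkbp14 and Mturn on chromosome 6 were also lower pairs. In 3 pairs the neighbours differed in direction, Creb3l3 lower beside Map2k2 higher, Slpi lower beside Sys1 higher, and Cyfip1 lower beside Tubgcp5 higher.

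Gas1, a growth arrest gene, had 57.2 and 65.1 FPKM in untreated Ctrl and PGC-1α cells and 18.7 and 20.0 FPKM after OGD. Ptch1, the Hedgehog receptor, had 4.43, 3.94, 8.19 and 9.30 FPKM in the same order. The OGD and untreated values of both genes did not overlap, and their directions were opposite.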
